A study of Mus musculus with 14 samples.

Results

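Adhesion molecules of the endothelium were followed in bulk RNA from whole mouse heart after a dose of γ-rays to the chest. The set was chosen by gene symbol and holds 10 of the 54532 genes in the count table: the selectins Sele and Selp, the immunoglobulin-like molecules Icam1, Icam2 and Vcam1, the junctional molecules Cdh5, Pecam1, Jam2 and Esam, and the sialomucin Cd34. All 10 had enough counts to be tested, beside 16034 tested genes in all. There were 14 hearts, 1 library each, from wild-type male C57BL/6J mice, and separate mice served as replicates. The mice were 8 weeks old when assigned to groups, so comparisons over time are also comparisons of age. The mice of IRR_1d (n = 3) and IRR_6w (n = 4) had received 30 Gy of 60Co γ-rays to the anterior chest under pentobarbital, with lead over the rest of the body, and hearts were taken after 1 day or 6 weeks. Control_1d (n = 3) and Control_6w (n = 4) were mice that were not irradiated, and whether they were anesthetized was not stated in the sources used here.

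Leukocytes leave the blood in steps. They roll on selectins, which bind sugar-bearing ligands. They then arrest on ICAM and VCAM molecules, which bind integrins, and pass between endothelial cells where VE-cadherin, PECAM-1, JAM and ESAM hold the junctions. Resting endothelium carries the junctional molecules and ICAM-2 at all times, while E-selectin, VCAM-1 and much of ICAM-1 are made after stimulation by cytokines such as TNF, through NF-kB. P-selectin is stored ready-made in granules of endothelial cells and platelets. The question addressed here was which of these molecules differed in the irradiated heart at 1 day and at 6 weeks.

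At 6 weeks, 1 of the 10 molecules rose past the threshold, a fold change above 2 or below 0.5 with an adjusted p under 0.05 over all tested genes, against 0.256% of all genes. Icam1 was 2.97-fold higher in IRR_6w than in Control_6w, and it is the gene whose product holds arrested leukocytes through the integrins of Itgal, Itgam and Itgb2. This call was kept in 4 of 14 fits that left out 1 library, and it was lost in limma-voom, with a replicate block, with only the groups compared and with endothelial scaling. Sele was 10.6-fold higher, with no overlap between the groups, but its adjusted p lay above the limit. Scaled to library totals, Pecam1 and Cd34 were also higher in every IRR_6w library than in any Control_6w library. The same held for 6.63% of all genes. With the scaling used in the fits (TMM, described below), both genes overlapped between the groups. Jam2 was the member with a fold below 1. At 1 day 0 of 10 members passed the threshold, against 0.0249% of all genes.

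RefSeq windows around the start of transcription, 250 bases before it and 50 after it on GRCm38.p6, were at hand for 4 members, Sele, Selp, Icam1 and Cd34. Those of Sele and Icam1 are shown because these members had the smallest p at 6 weeks, and that of Selp because it is the sister selectin beside Sele on chromosome 1. All lie on the + strand, and positions are counted from 1 at the 5′ end of the window. Capitals mark matches, on either strand, to the letters searched.
Sele, chr1:164047984-164048283: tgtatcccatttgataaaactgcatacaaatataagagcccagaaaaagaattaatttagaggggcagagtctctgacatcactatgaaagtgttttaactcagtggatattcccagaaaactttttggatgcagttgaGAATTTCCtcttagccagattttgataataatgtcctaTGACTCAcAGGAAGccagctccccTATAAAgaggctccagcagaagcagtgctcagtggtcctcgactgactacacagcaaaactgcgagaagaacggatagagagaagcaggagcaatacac
Icam1, chr9:21015690-21015989: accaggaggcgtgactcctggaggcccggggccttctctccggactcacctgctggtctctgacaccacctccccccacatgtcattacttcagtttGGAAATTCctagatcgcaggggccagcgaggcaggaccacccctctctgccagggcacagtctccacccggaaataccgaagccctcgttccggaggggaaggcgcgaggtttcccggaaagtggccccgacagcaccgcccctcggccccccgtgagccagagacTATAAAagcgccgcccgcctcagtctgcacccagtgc
Selp, chr1:164115014-164115313: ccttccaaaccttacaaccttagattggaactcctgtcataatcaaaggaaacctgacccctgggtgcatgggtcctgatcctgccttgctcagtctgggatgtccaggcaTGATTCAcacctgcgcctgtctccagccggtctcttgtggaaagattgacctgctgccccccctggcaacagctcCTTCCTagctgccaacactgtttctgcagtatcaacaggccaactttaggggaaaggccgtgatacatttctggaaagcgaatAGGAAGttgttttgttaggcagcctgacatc
The letters searched on both strands were TGACTCA with any base in its middle (AP-1), AGGAAG (ETS factors), TATAAA (the box of the basal promoter), and the motifs known as ISRE, NF-kB and p53 half-site. A core of the NF-kB motif, GGAAATTC, was added after the sequences had been seen. None of the motifs overlapped another in these windows. The Sele window held this core on the other strand, as GAATTTCC at positions 140 to 147. It also held TGACTCA at 178 to 184, AGGAAG at 186 to 191 and TATAAA at 202 to 207. The Icam1 window held GGAAATTC at 98 to 105 and TATAAA at 264 to 269, which is 13 bases after the RefSeq start of this window and before the deposited gene start, 21015985. In Selp the core and TATAAA were not found, and TGATTCA stood at 112 to 118, CTTCCT at 187 to 192 and AGGAAG at 270 to 275, after the start. The window of Cd34, chr1:194938571-194938870, held CTTCCT at 109 to 114 and no other match. Of 32851 promoter windows of this length, 0.877% held the added core, which was picked from these sequences, so its share is no measure of them. Of the same windows, 7.81% held the AP-1 letters, 35.4% the ETS letters and 13.6% the letters of the basal box. The NF-kB motif (4.51% of windows), the ISRE (3.44%) and the p53 half-site (8.36%) had no match in these 4 windows. A match describes letters only, and binding was not measured.

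Library totals ran from 13336746 to 16837265 counts. Values below are CPM, the count scaled to the library total, and the fits scaled totals by TMM, a trimmed mean of gene ratios. Overlap between groups was judged in these CPM, without TMM. The TMM factors, which divide the CPM, were 1.18, 1.06, 1.18 and 1.25 in IRR_6w and 0.968, 0.928, 1.16 and 0.915 in Control_6w. They were 0.955, 0.81 and 1.04 in IRR_1d and 1.1, 0.726 and 0.873 in Control_1d. With library totals in place of TMM, the median of all genes moved by 0.0758 (log2) at 1 day and by 0.233 at 6 weeks. Endothelial RNA was present in every library: 14 endothelial identity genes such as Kdr and Tie1 summed to 880 to 2450 CPM, and none of them was at 0. A few libraries also held RNA of neighbouring tissues. Control_6w replicate 3 had 3110 CPM of 6 thymocyte genes against 0 to 36.8 CPM in the others, and the lowest endothelial sum, 880 CPM. IRR_6w replicate 1 had 496 CPM of 6 lung epithelium genes, against 0 to 32.9 CPM in the others. The 3 brown fat genes summed to 1180 CPM in IRR_6w replicate 1, 803 CPM in Control_6w replicate 3 and 357 CPM in IRR_1d replicate 3, against 9.94 to 36.4 CPM elsewhere. The 4 atrial genes reached 3320 CPM in IRR_6w replicate 1 and 1220 CPM in IRR_1d replicate 3, against 9.24 to 389 CPM elsewhere. In libraries with many missing genes, a count of 0 says little. Of genes at 1 to 3 CPM on average in the other libraries, 55.6% were at 0 counts in Control_1d replicate 1, 48.8% in IRR_6w replicate 3, 28.8% in IRR_6w replicate 4 and 19% in Control_6w replicate 1, against 0.763 to 9.54% in the other 10.

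Levels between genes were compared per kilobase of the deposited gene length (FPKM). In all 4 groups Cdh5, the VE-cadherin of adherens junctions, had the highest mean, and the selectins had the lowest. In Control_6w the mean was 64.3 FPKM for Cdh5, 49.3 for Pecam1, 41.3 for Jam2, 30 for Esam, 19.9 for Icam2, 19.3 for Cd34, 7.26 for Vcam1, 4.05 for Icam1, 0.231 for Sele and 0.182 for Selp. Within that group most neighbours in the order overlapped over the 4 libraries, and only Icam1 and Sele were separate, at 3.4 to 4.96 against 0.0253 to 0.439 FPKM. In IRR_6w the mean was 92.9 FPKM for Cdh5 and 92.1 for Pecam1, whose ranges overlapped. Pecam1 (69.3 to 116) was separate from Cd34 (30.2 to 44.7 FPKM) there. Jam2 (23 to 34.7) stood apart from Icam1 (8.87 to 20.1), and Vcam1 (8.8 to 14.2) from Sele (1.82 to 4.04). The mean of Jam2 was 41.2 FPKM in Control_1d (rank 2), 28.6 in IRR_1d (rank 4), 41.3 in Control_6w (rank 3) and 28.1 in IRR_6w (rank 6).

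**Figure D1:**
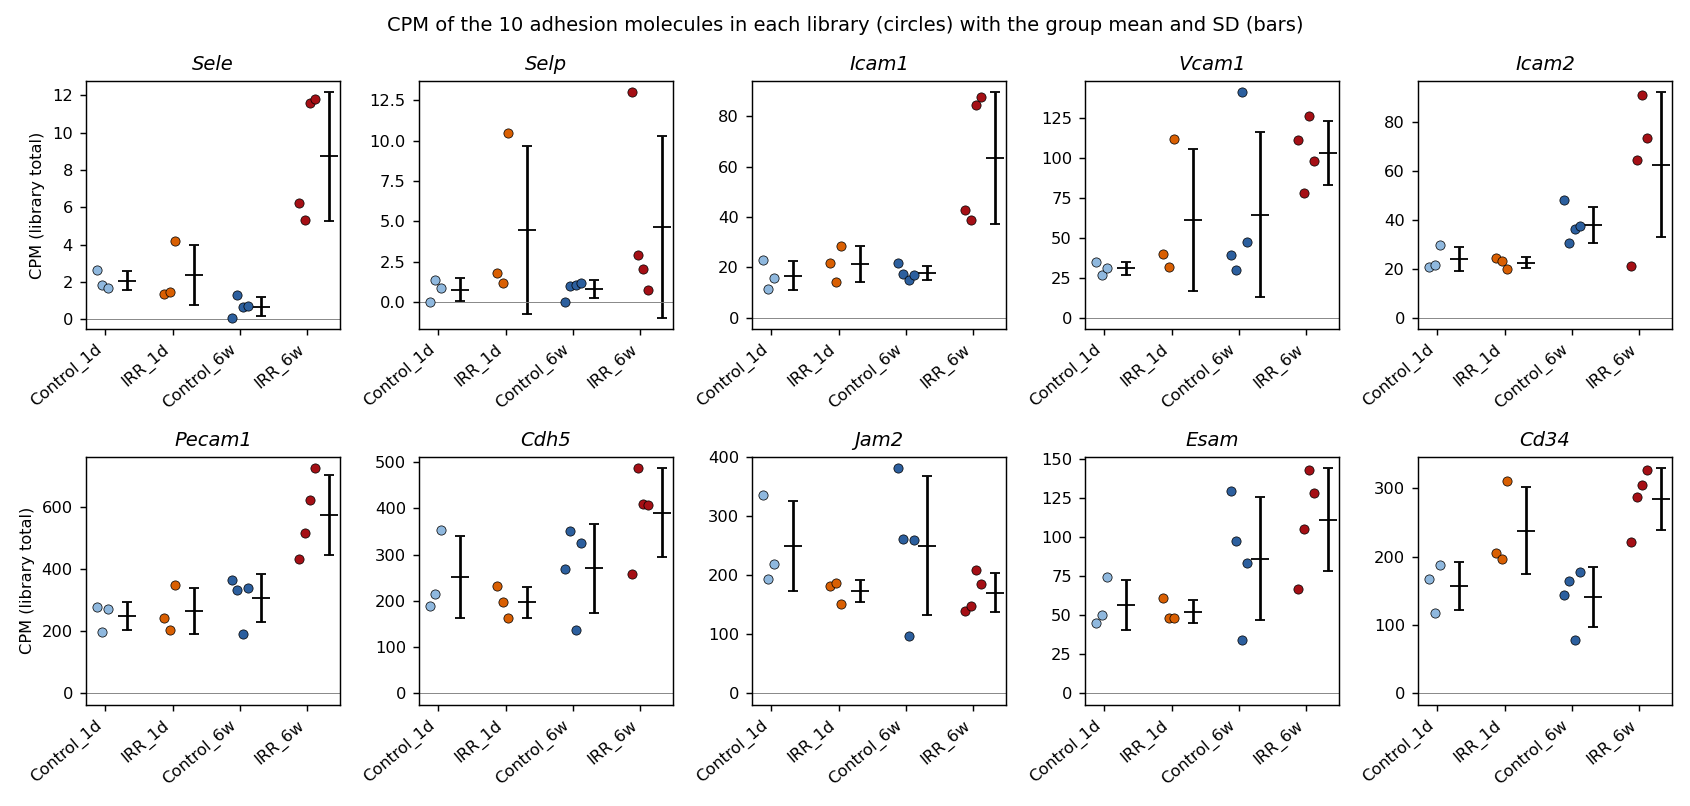
Each panel plots the CPM (linear axis) of 1 member in the 14 libraries by group, with circles for libraries and bars for the group mean ± SD. Sele and Icam1 lie higher in all 4 IRR_6w libraries than in any other library, while the high means of Selp in both irradiated groups rest on 1 library each, at 10.5 and 13 CPM.

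The selectins were the scarcest members. Gene positions are those deposited, on GRCm38 (mm10). E-selectin, the product of Sele (ENSMUSG00000026582, chromosome 1, 164048234 to 164057677, + strand), tethers leukocytes to inflamed endothelium. Its counts were 38, 25 and 25 in Control_1d and 22, 21 and 61 in IRR_1d. At 6 weeks they were 1, 18, 10 and 11 in Control_6w and 92, 83, 155 and 198 in IRR_6w. Every IRR_6w library thus had more Sele counts than any of the other 10, and Control_6w replicate 1 had the fewest. In CPM, the Control_6w libraries held 0.0736, 1.28, 0.658 and 0.677 (mean 0.672 ± 0.491, SD, n = 4). The IRR_6w libraries held 6.22, 5.3, 11.6 and 11.8 CPM (8.73 ± 3.44, n = 4). edgeR gave a log2 fold change of 3.4 (SE 0.741) with a Benjamini-Hochberg adjusted p = 0.075 in its quasi-likelihood test, above the limit of 0.05, and Sele ranked 83 of all tested genes by p. DESeq2 gave a log2 fold change of 3.43 with adjusted p = 3.42e-05, and scaling by library totals gave 3.68 with adjusted p = 0.0498, so that both called the gene. The other alternatives at 6 weeks gave adjusted p between 0.0657 and 0.298.

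Sele at 1 day did not differ beyond the spread. Means were 2.05 ± 0.511 CPM in Control_1d and 2.34 ± 1.61 in IRR_1d (n = 3 each), where IRR_1d replicate 3 was highest at 4.2 CPM and the groups overlapped. The fitted log2 fold change was 0.09 (SE 0.779, edgeR adjusted p = 1). Between the control groups the log2 fold change from 1 day to 6 weeks was -1.71 (SE 0.739, unadjusted p = 0.0361, adjusted p = 0.902), and the 4 Control_6w libraries lay below the 3 Control_1d libraries (1.68 to 2.63 CPM). The same Control_6w libraries, with these low values, are the reference of the comparison at 6 weeks.

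P-selectin (Selp, ENSMUSG00000026580, chromosome 1, 164115264 to 164150026, + strand) starts the rolling of leukocytes within minutes when its granules are released. Counts were 0, 19 and 13 in Control_1d and 29, 17 and 152 in IRR_1d. At 6 weeks they were 0, 14, 16 and 19 in Control_6w against 192, 45, 27 and 12 in IRR_6w. IRR_1d replicate 3 (10.5 CPM) and IRR_6w replicate 1 (13 CPM) were far above the other 12 libraries, which held 0 to 2.88 CPM. By counting alone, the 0 in Control_1d replicate 1 allows up to 3 counts or 0.208 CPM at 95% confidence, and that in Control_6w replicate 1 up to 0.221 CPM. Both libraries are among those in which many low genes were missing. Fitted log2 fold changes were 2.21 (SE 1.5) at 1 day and 2.28 (SE 1.3) at 6 weeks, with edgeR adjusted p of 1 and 0.664, and both pairs of groups overlapped. Without IRR_6w replicate 1 the value at 6 weeks was 1.02, adjusted p = 0.833. Without IRR_1d replicate 3 the value at 1 day was 0.79, adjusted p = 1.

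Plvap, Vwf and the summed platelet and atrial genes stood highest in the same 2 libraries as Selp. Plvap, a protein of fenestrated and venous endothelium, was at 136 CPM in IRR_6w replicate 1 and 52.2 in IRR_1d replicate 3, against 3.9 to 40.5 CPM in the other 12. Vwf, which shares the endothelial granules with P-selectin, was at 527 and 429 CPM in these libraries against 52 to 265 elsewhere. The 7 platelet and megakaryocyte genes summed to 227 and 169 CPM there, against 25.2 to 91.4 elsewhere. Single genes did not all share this order. The platelet gene Pf4 was at 48.5 and 43.4 CPM there and at 43.5 CPM in Control_6w replicate 1, and the venous gene Ackr1 was at 4.94 and 1.38 CPM there and at 3.22 CPM in IRR_6w replicate 3. Control_1d had sums of 36 to 91.4 CPM and IRR_1d of 38.6 to 169 CPM. Control_6w had sums of 25.2 to 56.1 CPM and IRR_6w of 38.2 to 227 CPM. Between 3 and 6 of the 7 genes were counted in a library. The platelet marker Gp9 was at 0 counts in Control_1d replicate 1 and in IRR_6w replicates 3 and 4. The part of these tissues and cells in the Selp values was not tested. In bulk RNA, more cells of a type and more RNA per cell cannot be told apart.

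**Figure D2:**
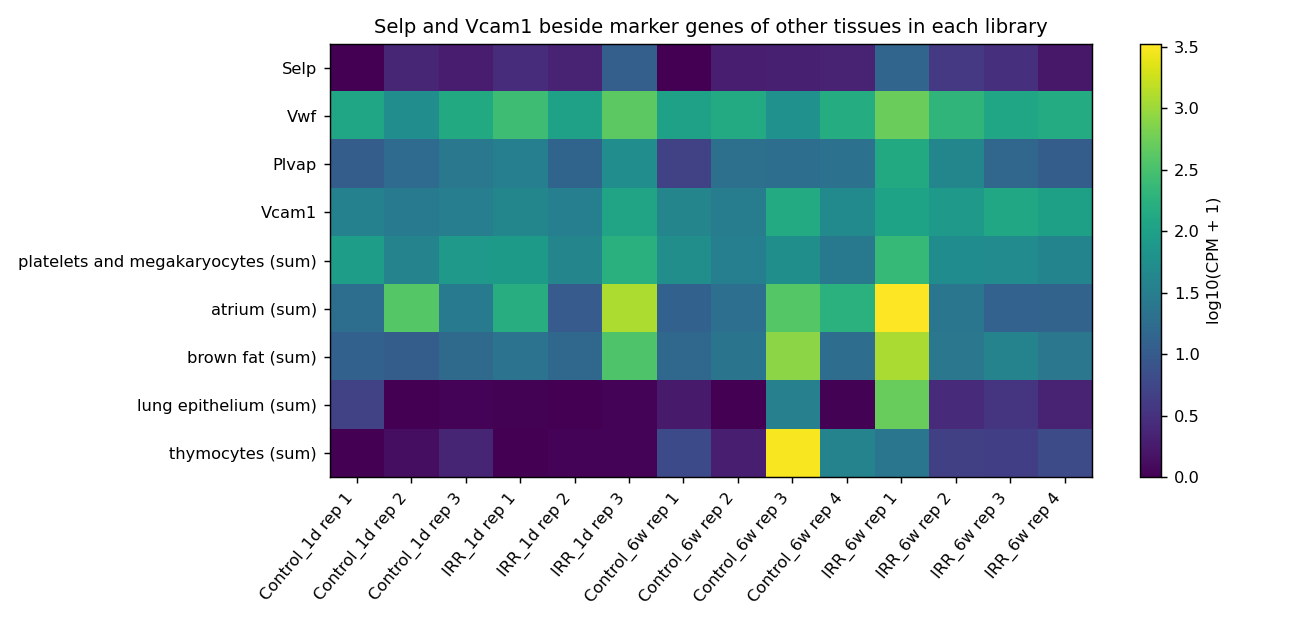
The heat map shows log10(CPM + 1) of Selp, Vwf, Plvap and Vcam1 and the summed CPM of marker genes of 5 other cell types or tissues (rows) in the 14 libraries (columns), brighter being higher. The Selp, Vwf, Plvap, platelet and atrial rows are brightest in IRR_1d replicate 3 and IRR_6w replicate 1, and the thymocyte row in Control_6w replicate 3.

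ICAM-1 (Icam1, ENSMUSG00000037405, chromosome 9, 21015985 to 21028817, + strand) is made by endothelium and also by leukocytes and other stimulated cells. Its CPM were 22.8, 11.6 and 15.8 in Control_1d and 21.8, 14.2 and 28.5 in IRR_1d. At 6 weeks they were 21.6, 17.2, 14.8 and 17.1 in Control_6w (17.7 ± 2.86, n = 4) and 42.9, 38.7, 84.4 and 87.6 in IRR_6w (63.4 ± 26.2, n = 4). The 4 IRR_6w libraries were above all other libraries, and replicates 3 and 4 were higher than replicates 1 and 2 by more than the whole range of the controls. Icam1 rose at 6 weeks with a log2 fold change of 1.57 (SE 0.288) and an adjusted p = 0.0434 in edgeR's quasi-likelihood test with Benjamini-Hochberg adjustment. Of all tested genes, 0.256% were called at 6 weeks and Icam1 ranked 28 by p, so 1 of 10 members stands beside 41 of 16034 genes. At 1 day the log2 fold change was 0.31 (SE 0.327, adjusted p = 1).

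The Icam1 call lies close to its limit. Leaving out 1 library at a time gave log2 fold changes of 1.4 to 1.72 and adjusted p of 0.0185 to 0.164, and the call was kept in 4 of 14 fits, those without Control_1d replicate 1, IRR_1d replicate 3, IRR_6w replicate 1 or IRR_6w replicate 2. It was lost with the replicate number as a block (1.51, adjusted p = 0.113), with only the groups compared (1.56, 0.102), in limma-voom (1.53, 0.0689) and with scaling to endothelial identity genes (1.41, 0.354). DESeq2 gave 1.58 with adjusted p = 9.16e-05. The 8 leukocyte genes summed to 219 to 441 CPM in IRR_6w, against 51.7 to 95.3 CPM in 3 Control_6w libraries and 1020 CPM in Control_6w replicate 3. At least 7 of the 8 were counted in each library at 6 weeks. edgeR called 0 of the 8 there. The macrophage genes Adgre1 and Cd68 had log2 fold changes of 1.97 (adjusted p = 0.0663) and 1.2 (adjusted p = 0.339), and 6 of the 8 were above 0. Ptprc had -0.86 (adjusted p = 0.842) and Cd3e -3.26 (adjusted p = 0.631), and without Control_6w replicate 3 both turned, to 2.14 (adjusted p = 0.0684) and 2.12 (adjusted p = 0.682). In that library, the one with the thymocyte genes, Ptprc made up 864 CPM of the sum, while Adgre1 was at 14.5 CPM, the lowest of its group. The part of leukocyte RNA in the Icam1 values was not tested. Of the exonic bases of Icam1, 11.7% lie on the strand opposite to Gm47079, which had 0 counts in all libraries, and whether the counting used strand was not stated.

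VCAM-1 (Vcam1, ENSMUSG00000027962, chromosome 3, 116109949 to 116129688, - strand) holds monocytes and lymphocytes through the integrin of Itga4 and Itgb1. The CPM were 34.7, 26.7 and 31.2 in Control_1d and 39.8, 31.6 and 112 in IRR_1d. At 6 weeks they were 39.4, 29.7, 141 and 47.4 in Control_6w and 111, 78, 126 and 98 in IRR_6w. Control_6w replicate 3 was thus above all 4 IRR_6w libraries, and the other 3 controls were below all of them. At 6 weeks edgeR gave a log2 fold change of 0.52 (SE 0.405, adjusted p = 0.771), and without Control_6w replicate 3 it was 1.09 (adjusted p = 0.21). It was 0.27 without Control_6w replicate 2 (adjusted p = 0.962) and 0.33 without Control_6w replicate 1, and with scaling to endothelial identity genes it turned to -0.19 (adjusted p = 0.929). At 1 day it was 0.86 (SE 0.471, unadjusted p = 0.0893), and 0.22 without IRR_1d replicate 3. Control_6w replicate 3 is the library with thymocyte genes at 3110 CPM, all 6 of them counted, and leukocyte genes at 1020 CPM. The thymocyte sum lay between 0 and 1.34 CPM in Control_1d and between 0 and 0.0695 CPM in IRR_1d. It lay between 0.993 and 3110 CPM in Control_6w and between 3.52 and 23.2 CPM in IRR_6w. The part of thymus RNA in the Vcam1 value was not tested.

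ICAM-2 (Icam2, ENSMUSG00000001029, chromosome 11, 106377656 to 106388075, - strand), which resting endothelium carries, stood at 38 ± 7.36 CPM in Control_6w (30.3 to 48) and 62.4 ± 29.6 in IRR_6w (n = 4 each). In IRR_6w, replicate 1 held 21.1 CPM, less than any Control_6w library, and the other 3 held 64.5 to 90.7 CPM, more than any. The fitted log2 fold change of Icam2 was 0.47 (SE 0.359, adjusted p = 0.767). It was 0.76 without that library and 0.24 without IRR_6w replicate 3. At 1 day the means were 23.9 ± 4.95 CPM in Control_1d and 22.4 ± 2.24 CPM in IRR_1d (n = 3 each), and the fitted change was -0.17 on the log2 scale (SE 0.416).

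Among the junctional molecules, PECAM-1 (Pecam1, ENSMUSG00000020717, chromosome 11, 106654217 to 106750628, - strand), through which leukocytes pass between endothelial cells, was at 366, 332, 192 and 338 CPM in Control_6w. In IRR_6w it was at 431, 516, 622 and 725 CPM. The groups did not overlap in CPM, at 307 ± 78 and 574 ± 128 (n = 4 each). Divided by the TMM factors they did overlap, since IRR_6w replicate 1 then lay below Control_6w replicate 1. edgeR gave a log2 fold change of 0.62 (SE 0.274, unadjusted p = 0.0383, adjusted p = 0.523), and 0.41 without Control_6w replicate 3 (adjusted p = 0.498). At 1 day it was 0.01 (SE 0.315), from 249 ± 44.6 CPM in Control_1d and 265 ± 75.3 in IRR_1d.

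VE-cadherin (Cdh5, ENSMUSG00000031871, chromosome 8, 104101625 to 104144511, + strand), the adhesive core of endothelial adherens junctions, overlapped between the groups at both times. It held 137 to 351 CPM in Control_6w (270 ± 95.2) and 257 to 487 in IRR_6w (390 ± 96.1). Its log2 fold change was 0.26 (SE 0.37, edgeR adjusted p = 0.884), and 0 without Control_6w replicate 3. At 1 day it was -0.44 (SE 0.428). ESAM (Esam, ENSMUSG00000001946, chromosome 9, 37528078 to 37538319, + strand), a tight junction molecule of endothelium and platelets, held 34.4 to 129 CPM in Control_6w and 67 to 143 in IRR_6w, a log2 fold change of 0.08 (SE 0.384, adjusted p = 0.969). The Esam value was -0.21 at 1 day (SE 0.445), and -0.21 at 6 weeks without Control_6w replicate 3. Without IRR_6w replicate 3 it was -0.06, so the direction of Esam at 6 weeks rested on single libraries.

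JAM-B (Jam2, ENSMUSG00000053062, chromosome 16, 84774123 to 84825928, + strand), a junctional adhesion molecule that binds JAM-C and the integrin of Itga4 and Itgb1, had the only negative log2 fold change at 6 weeks. Its CPM were 381, 261, 97 and 260 in Control_6w and 139, 147, 209 and 185 in IRR_6w. The IRR_6w libraries were below 3 of the Control_6w libraries and above replicate 3, the library with the thymocyte genes and the lowest endothelial sum. Jam2 had a log2 fold change of -0.84 (SE 0.356), with an unadjusted p = 0.0323 and an edgeR adjusted p = 0.502. Without Control_6w replicate 3 it was -1.14 (adjusted p = 0.064) and without Control_6w replicate 1 it was -0.59 (adjusted p = 0.69), the ends of the range with 1 library left out. In a fit chosen after seeing the data, without the 3 libraries high in brown fat genes, it was -1.05 with adjusted p = 0.0388, past the threshold. At 1 day Jam2 was at 336, 194 and 218 CPM in Control_1d and 181, 187 and 151 in IRR_1d, so that the groups did not overlap, with a log2 fold change of -0.54 (SE 0.409, adjusted p = 1).

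The sialomucin CD34 (Cd34, ENSMUSG00000016494, chromosome 1, 194938819 to 194961279, + strand) coats vascular endothelium, haematopoietic progenitors and interstitial cells of the heart, and serves as a ligand of L-selectin where it is suitably glycosylated. Its CPM were 144, 164, 78.4 and 178 in Control_6w and 221, 287, 304 and 326 in IRR_6w. The groups did not overlap in CPM (141 ± 43.9 and 284 ± 45.5, n = 4 each). Divided by the TMM factors they did, since IRR_6w replicate 1 then lay below Control_6w replicate 4. For Cd34 the log2 fold change was 0.73 (SE 0.294), with an unadjusted p = 0.0256 and an edgeR adjusted p = 0.463, and it was 0.5 without Control_6w replicate 3. At 1 day the CPM were 167, 118 and 187 in Control_1d and 205, 196 and 311 in IRR_1d. These groups did not overlap in CPM, with a log2 fold change of 0.52 (SE 0.339, adjusted p = 1). Gm16897 lies opposite to 2.03% of its exonic bases and had 0 to 78 counts, against 1191 or more of Cd34.

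**Figure D3:**
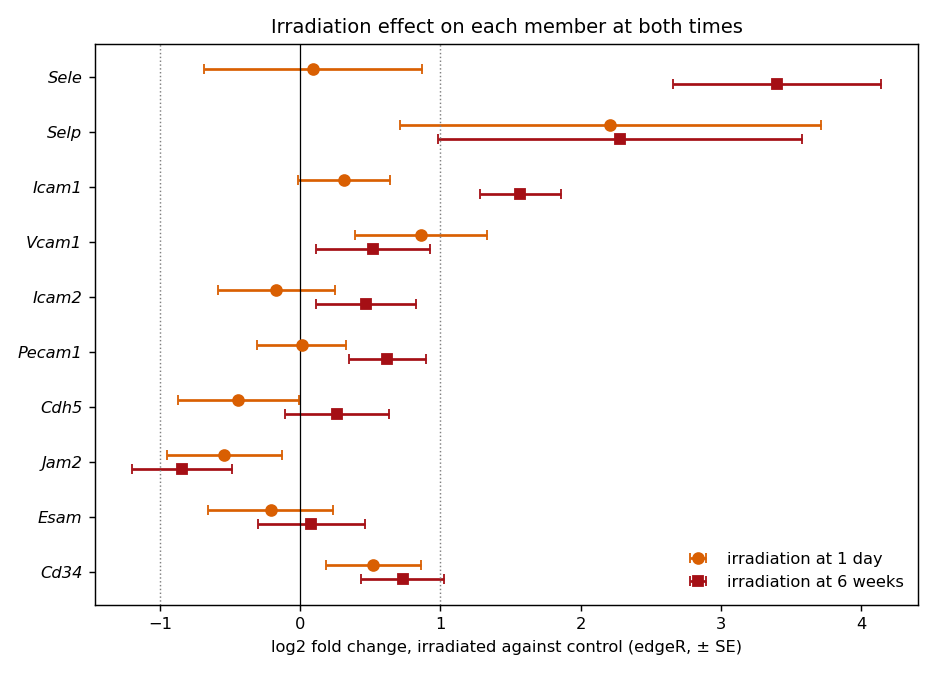
Points give the log2 fold change of each member (rows), irradiated against control, at 1 day (circles) and 6 weeks (squares), with bars of ± 1 SE and dotted lines at a log2 fold change of -1 and 1. At 6 weeks 9 of 10 members lie above 0, with Sele at 3.4 and Icam1 at 1.57, and only Jam2 lies below at -0.84.

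Over the whole set, 9 of 10 members had a log2 fold change above 0 at 6 weeks, with a median of 0.571, while 43.8% of all genes were above 0 and their median was -0.0886. Without Control_6w replicate 3, the median of all genes was 0.00813, Esam was at -0.21 and Cdh5 at 0. In that fit Selp (2.34) and Vcam1 (1.09) were higher than with all libraries, and the other members were lower. With all libraries, 4 members were higher and 1 was lower at an unadjusted p under 0.05, against 5.43% and 3.37% of all tested genes. With the fold limits added, 2 members (Sele and Icam1) and 5.43% of all genes had such a p. In 4 of 10 (Sele, Icam1, Pecam1 and Cd34) every IRR_6w library was above every Control_6w library in CPM, which held for 6.63% of all genes. Divided by the TMM factors, Pecam1 and Cd34 overlapped, and Sele and Icam1 did not. The share of all genes after this division was not computed. At 1 day 0 of 10 members were called by edgeR, DESeq2 or limma-voom. Of all genes, 0.0249% were called by edgeR, and DESeq2 called 30 genes. There 0 members had an unadjusted p under 0.05, against 1.94% of all genes higher and 0.96% lower, and 2.23% with the fold limits added. Of the members, 6 were above 0 with a median of 0.0481, beside 55.1% of all genes and their median of 0.0618. Cd34 was higher and Jam2 lower without overlap at 1 day, which held for 7.28% and 1.97% of all genes.

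From 1 day to 6 weeks in irradiated mice, edgeR called 0 members and 0.0374% of all genes. DESeq2 called 1 member (Icam1) and 146 genes in all, and limma-voom called 0 members and 10 genes. At an unadjusted p under 0.05, 3 members were higher and 0 lower, against 4.2% and 1.6% of all genes, and 2 members (Icam1 and Icam2) and 3.85% of genes passed the fold limits too. The 3 were Icam1 (log2 fold change 1.25, SE 0.315, adjusted p = 0.328), Icam2 (1.14, SE 0.4, adjusted p = 0.677) and Pecam1 (0.81, SE 0.301, adjusted p = 0.734). In 5 members (Sele, Icam1, Pecam1, Cdh5 and Esam) every IRR_6w library was above every IRR_1d library in CPM, against 10.7% of all genes. In 0 members every one was below (1.12%). Divided by the TMM factors, Cdh5 and Esam overlapped, and Sele, Icam1 and Pecam1 did not. In this comparison 7 members and 48.5% of all genes were above 0, and the median was 0.704 for the members and -0.0179 for all genes.

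Between the control groups edgeR, DESeq2 and limma-voom called 0 members. Of all genes, edgeR called 0%, and DESeq2 called 27 genes. Sele was the 1 member at an unadjusted p under 0.05, lower in Control_6w, against 1.75% of all genes, and 0 were higher (3.54%). Its fold was also past the limit, as for 3.75% of all genes with such a p. Of the members 4 were above 0, against 59.1% of all genes, with a median of -0.0262 beside 0.121. Groups without overlap in CPM were those of Icam2, higher in Control_6w with a log2 fold change of 0.49 (5.77% of all genes), and Sele, lower (1.03%). Divided by the TMM factors, Icam2 overlapped and Sele did not. The IRR_6w libraries serve both the comparison at 6 weeks and that over time, and the Control_6w libraries likewise, so these values are not independent.

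The difference between the irradiation effect at 6 weeks and at 1 day was tested as an interaction. edgeR, DESeq2 and limma-voom called 0 members. Of all genes, edgeR called 0%, and DESeq2 called 43 genes. Sele had a difference of 3.32 on the log2 scale (SE 1.06, unadjusted p = 0.00724, adjusted p = 0.99), and Icam1 one of 1.26 (SE 0.433, unadjusted p = 0.0111, adjusted p = 0.99). These were the 2 members at an unadjusted p under 0.05, both higher and past the fold limits, against 2.13% of all genes higher, 1.01% lower and 2.86% with the fold limits. In all, 8 members were above 0, against 41.4% of genes, and the medians were 0.454 and -0.153. In the other 8 members the difference ran from -0.34 for Vcam1 to 0.69 for Cdh5.

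Averaged over both times, edgeR called 0 members and 45 genes, 0.281% of all. DESeq2 called 1 member (Sele) and 184 genes in all, and limma-voom called 0 members and 24 genes. At an unadjusted p under 0.05, 5 members were higher and 1 was lower, against 5.25% and 2.27% of all genes, and 2 (Sele and Selp) passed the fold limits, against 3.58%. There 7 members were above 0, against 48% of genes, with medians of 0.471 and -0.0213. Icam1 had an average log2 fold change of 0.94 (SE 0.218, adjusted p = 0.121) and Sele 1.75 (SE 0.532, adjusted p = 0.323). Cd34 had 0.63 (SE 0.225, adjusted p = 0.45) and Jam2 -0.69 (SE 0.271, adjusted p = 0.519), each in the same direction at both times. Selp (2.25, SE 0.998, adjusted p = 0.625) and Vcam1 (0.69, SE 0.31, adjusted p = 0.635) completed the 6.

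**Figure D4:**
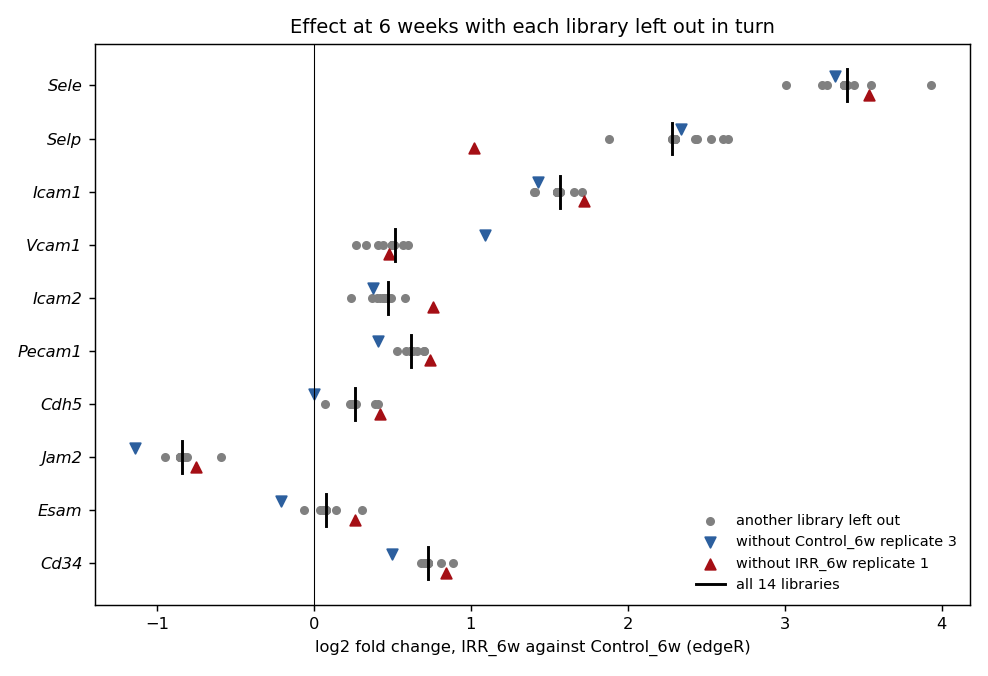
Points give the log2 fold change of each member at 6 weeks, IRR_6w against Control_6w, with 1 of the 14 libraries left out, and black lines give the value with all 14. Icam1 stays between 1.4 and 1.72, whereas Selp drops to 1.02 without IRR_6w replicate 1 (triangle up) and Vcam1 reaches 1.09 without Control_6w replicate 3 (triangle down).

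The counts of each member were also set against those of Cdh5 in the same library, a ratio that no library scaling can change. Sele was at 0.0275 to 0.479% of Cdh5 in Control_6w and 1.09 to 2.89% in IRR_6w, so that all 4 irradiated libraries were above every control, which held for 1.09% of all genes. Icam1 was at 4.9 to 10.8% in Control_6w, against 7.93 to 21.5% in IRR_6w, and 3 of 4 were above every control. Cd34 went from 46.7 to 57% in Control_6w against 59 to 85.6% in IRR_6w, again without overlap. Jam2 was at 70.6 to 142% of Cdh5 in Control_6w and 30.1 to 53.9% in IRR_6w, and all 4 irradiated libraries were below every control (3.64% of all genes). Per Cdh5, then, Jam2 was lower even beside Control_6w replicate 3, in which its CPM were the lowest. Vcam1 was at 103% in Control_6w replicate 3, and its range over the IRR_6w libraries, 16 to 43.2%, lay inside that of the controls (8.46 to 103%). At 1 day, Esam was at 21.1 to 23.9% of Cdh5 in Control_1d and 24.4 to 29.1% in IRR_1d, without overlap as for 20.7% of all genes (0.443% were lower), and Sele, Icam1 and Jam2 overlapped. The ratio shows unequal change of 2 genes and does not tell which of them changed.

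**Figure D5:**
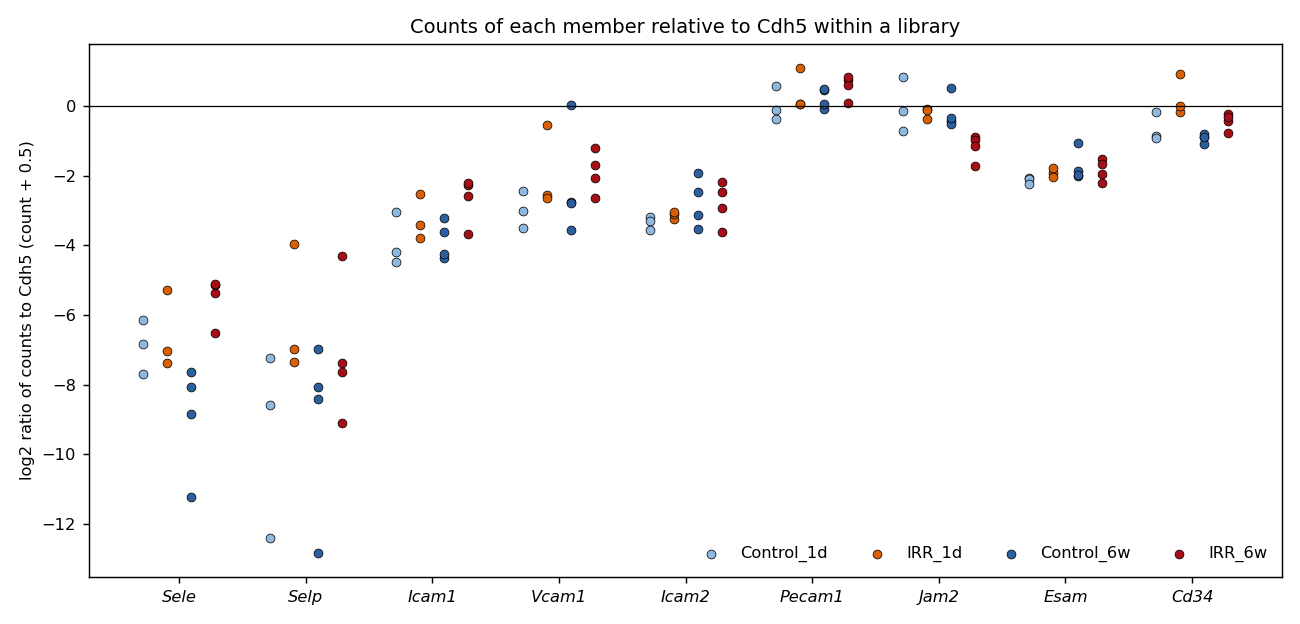
Points give, for each library by group, the log2 ratio of counts (with 0.5 added) of 9 members to Cdh5, and the line at 0 marks equal counts. Sele and Cd34 of IRR_6w lie above all Control_6w points and Jam2 of IRR_6w below all of them.

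Partners of these molecules were followed in lists. Among 12 leukocyte ligands, which bind the selectins, ICAMs and VCAM-1, 0 were called at 6 weeks, 4 were higher and 0 lower at an unadjusted p under 0.05 (5.43% and 3.37% of all genes), and the median log2 fold change was 0.626 beside -0.0886 for all genes. They were Itgam (1.56, edgeR adjusted p = 0.285), the integrin chain of Mac-1 that binds ICAM-1, Itgax (2.07, adjusted p = 0.551), Cd44 (1.11, adjusted p = 0.392) and Itgb1 (0.75, adjusted p = 0.476). At 1 day 1 of the 12 was lower (0.96% of all genes), Itgb7 with -2.49 (SE 1.07, adjusted p = 1). Of 10 genes that build the sugars of selectin ligands, 9 were tested, and 0 were called or had an unadjusted p under 0.05 at either time. Of 12 junction partners such as Tjp1 and Ctnnb1, 0 were called and 0 had such a p at either time.

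Among 16 genes of NF-kB and cytokine signaling, the pathway known to switch on Sele, Icam1 and Vcam1, 0 were called at 6 weeks and 4 were higher and 0 lower at an unadjusted p under 0.05, against 5.43% and 3.37% of all genes. The TNF receptor gene Tnfrsf1b stood 1.05 higher on the log2 scale (SE 0.262, adjusted p = 0.124 in edgeR). The chemokine gene Ccl2 had 2.33 (SE 0.668, adjusted p = 0.196). The NF-kB subunit Relb had 0.68 (SE 0.289, adjusted p = 0.506). Il6, an inflammatory cytokine, was at 0.103 ± 0.124 CPM in Control_6w, a mean below the level of 3 counts in a library, and at 1.82 ± 1.38 CPM in IRR_6w (n = 4 each, adjusted p = 0.391 in edgeR), so no fold is given. The inhibitor gene Nfkbia had -0.28 (adjusted p = 0.777) and Tnf 0.26 (adjusted p = 0.976). The median of the 16 was 0.287, beside -0.0886 for all genes. At 1 day it was -0.118, beside 0.0618, where 0 had an unadjusted p under 0.05.

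Genes of endothelial identity and of capillaries were compared beside the members. Of 14 identity genes 0 were called at 6 weeks, and the median log2 fold change was 0.104, beside -0.0886 for all genes. At an unadjusted p under 0.05, 1 was higher and 2 were lower, against 5.43% and 3.37% of all genes. Mmrn2, a matrix protein of vessels, had 1.07 (adjusted p = 0.274), Flt1, a VEGF receptor, -1.07 (adjusted p = 0.244) and Tek, the angiopoietin receptor, -0.78 (adjusted p = 0.417). All 6 capillary genes had a log2 fold change below 0 at both times, with medians of -0.784 at 1 day (0.0618 for all genes) and -0.931 at 6 weeks. At 6 weeks Aqp1, a water channel, had -2.06 (edgeR adjusted p = 0.0649), Car4 -3.34 (adjusted p = 0.276) and Rgcc -1.19 (adjusted p = 0.236). These 3 had an unadjusted p under 0.05, against 3.37% of all genes lower, and 0 were called. At 1 day Rgcc had such a p, with -1.15 (SE 0.418, adjusted p = 1), against 0.96% of all genes lower. Car4 held 14.9 to 31.4 CPM in Control_6w, 4.33 and 5.56 CPM in IRR_6w replicates 1 and 2, and 0 in replicates 3 and 4. Those 2 libraries miss many genes of 1 to 3 CPM, a level below these Car4 values. The part of missing genes in the zeros of Car4 was not tested, so its fitted value is uncertain. The 4 venous genes were all above 0 at both times, with medians of 0.811 and 0.47, and 0 of the 4 were called. Vwf had 1.28 at 1 day (SE 0.596, adjusted p = 1), the 1 venous gene with an unadjusted p under 0.05, against 1.94% of all genes higher. The venous sums were highest in IRR_1d replicate 3 (540 CPM) and IRR_6w replicate 1 (655 CPM), the libraries with high atrial and brown fat genes, against 102 to 363 CPM elsewhere, and the part of these tissues was not tested.

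The 14-library profiles of the members were compared by the root-mean-square difference of centred log2 CPM, over about 9910 genes with a mean of at least 5 CPM. The 3 nearest genes were Phf11b (0.539), Pik3ap1 (0.749) and Clec4a1 (0.753) for Sele, and Plvap (0.917), Lgals3 (0.954) and Mfap4 (0.97) for Selp. For Icam1 they were Gm43197 (0.257), Gusb (0.299) and Mertk (0.3). The 2 nearest to Vcam1 were Tgif1 (0.232) and Ahi1 (0.249). A median gene differed by 1.6 from Sele, 1.84 from Selp, 0.93 from Icam1 and 0.898 from Vcam1. For Icam2 the nearest were Fkbp1a, Fyn and Bcl10 (0.319 to 0.327), and for Pecam1 Tpm4, Prrg3 and Ptpn9 (0.195 to 0.214). Cdh5 was nearest to Hspa12b (0.205), Sparcl1 (0.211) and Pdgfb (0.234), and Jam2 to Pygo1 (0.199), Flt1 (0.229) and Stau2 (0.236). Esam had Fam43a, Dnaja4 and Gfod1 (0.223 to 0.237) and Cd34 had Col6a2, Glis2 and Glg1 (0.218 to 0.235). Among pairs of members, Cdh5 and Esam were the closest (0.297), before Pecam1 and Esam (0.375) and Pecam1 and Cd34 (0.393). These distances describe the 14 libraries, which share their depth and tissue makeup, and carry no test.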

How the data were processed

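Heart RNA of 14 mice was measured by bulk RNA-seq. The authors checked reads with FastQC 0.11.8, trimmed them with Trim Galore 0.6.1, aligned them to mm10 with STAR 2.5.0a and used HTSeq for gene counts. The deposited values are whole-number counts for 54532 genes with a gene length beside them, which served for FPKM. The annotation release, counting mode and strandedness were not stated, so antisense neighbours could add counts. Deposited positions and lengths of the members were those of GENCODE M21. All 14 columns of counts were used, and 0 columns of per-sample values were left out. Samples were grouped by treatment and time.

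The main test was edgeR 4.0.16 (R 4.3.3) on the counts of all 14 libraries in 1 model of the 4 groups, with filterByExpr, TMM and glmQLFTest, its quasi-likelihood test. A gene with a Benjamini-Hochberg adjusted p under 0.05 over 16034 genes and a fold change above 2 or below 0.5 was called. CPM is the count over the library total. DESeq2 1.42.0, limma 3.58.1 (voom), other scalings and filters, a replicate block and fits without libraries served as alternatives. The scripts were tested on simulated data in which 200 genes changed by 2 on the log2 scale. Of these, 26% were called for irradiation at 1 day and 40% at 6 weeks. The share was 30% over time in controls, 31% in irradiated mice, 4.5% for the change in effect and 55% averaged over both times. A result of 0 members called therefore does not show that none changed. No pair of libraries of 1 group agreed within sampling noise. Same-numbered libraries did not deviate together, so replicate numbers were not taken as pairs.

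All 10 members are named, with the 3 genes nearest to each in profile and, in other lists, genes at an unadjusted p under 0.05 or of known role. Of these genes, 1 is not reported here. The members and lists were chosen with earlier results of these data known. A motif core and the fits without 2 or 3 doubted libraries were added after seeing the data. Ccl21a was left out of a lymphatic list because 2 genes share its symbol. Promoter windows were those of RefSeq, found for 4 members.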

Additional observations from a re-analysis of the deposited data

Results flagged for a closer look

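In groups of 4 libraries, the gap between the extreme library and the next was divided by the range of the group, and values past the limit of Dixon's test at 95% confidence were set aside for a closer look. Chance takes about 5% of groups past this limit. Selp was at 0 CPM in Control_6w replicate 1, where the next library held 0.993 CPM, and the ratio was 0.849. In this library 19% of genes of similar level were at 0 counts. Vcam1 was at 141 CPM in Control_6w replicate 3, where the next library held 47.4 CPM, and the ratio was 0.841. This library held 3110 CPM of thymocyte genes. Selp in IRR_6w replicate 1, at 13 CPM against 2.88 in the next library, had a ratio of 0.824, just inside the limit.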

How the results depend on the processing

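Selp and Sele had the lowest counts, at 0 to 192 and 1 to 198 in a library, and they also varied widely between libraries of a group. Of the 14 libraries, 4 miss many low genes. The cause of the changes below was not tested. At 6 weeks the number of members called was 1 and became 2 with library totals, DESeq2, an unadjusted p with the fold limits, or without the 3 libraries high in brown fat genes (Icam1 with Sele in the first 2 of these, Icam1 with Jam2 in the last). It was 0 with endothelial scaling, with only the groups compared, with limma-voom, with the replicate block, and without Control_1d replicate 1 and Control_6w replicate 1. Leaving out 1 library gave 0 to 1. All genes called at 6 weeks went from 41 to 871 with an unadjusted p and the fold limits, and to between 0 and 331 under the alternatives that adjust p, the highest with DESeq2. At 1 day they went from 4 to 358 and to between 0 and 30. Between the irradiated groups the 0 members became 1 with DESeq2 and without those 3 libraries, and 2 without Control_6w replicate 3 and IRR_6w replicate 1 or with an unadjusted p. All genes called there rose as well, from 6 to 146 with DESeq2 and 105 without the 3 libraries. They numbered 132 without the 2 libraries and 617 with an unadjusted p and the fold limits. An unadjusted p gave 1 member between the controls, 2 for the change in effect and 2 averaged over both times, where DESeq2 gave 1. Without a low-count filter and with a filter of 1 CPM in 3 libraries no member value changed its call or direction, and the same held with DESeq2 size factors.

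The replicate numbers did not pair the libraries, since same-numbered libraries had correlations of their deviations of -0.159, 0.04 and -0.0781 at 1 day and -0.364, 0.371, -0.176 and 0.041 at 6 weeks. With the replicate block 0 members were called at 6 weeks and 15 genes in all.

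Directions turned as follows, in log2 fold changes, none of them of a called gene. At 1 day Sele was -0.04 in limma-voom, -0.07 with the replicate block, -0.5 without the 3 libraries high in brown fat genes and -0.49 to 0.37 with 1 library left out. Pecam1 was 0 in limma-voom (just below 0), -0.14 without those 3 libraries, -0.05 without Control_1d replicate 1 and Control_6w replicate 1, and down to -0.14 with 1 library left out. Icam2 went from -0.39 to 0.04 and Esam from -0.46 to 0.07 with 1 left out. At 6 weeks Vcam1 was -0.19 with endothelial scaling. Esam was -0.03 without Control_6w replicate 3 and IRR_6w replicate 1, also when IRR_1d replicate 3 was left out with them, and -0.21 to 0.31 with 1 left out. Between the controls, library totals gave 0.1 for Selp, 0.08 for Icam1, 0.1 for Cdh5 and 0 for Jam2 (just above 0). Endothelial scaling gave 0.14 for Selp and 0.08 for Icam1, and limma-voom 0.46 for Selp. Without those 2 or those 3 libraries Icam1 was 0.12, Cdh5 0.22 and Jam2 0.22. With 1 left out, values were -0.82 to 0.71 for Selp, -0.12 to 0.12 for Icam1, -0.31 to 0.3 for Cdh5 and -0.33 to 0.22 for Jam2. Esam, at 0.46 in the main fit, was -0.04 without Control_1d replicate 1 and Control_6w replicate 1. Without Control_6w replicate 3 and IRR_6w replicate 1 it was 0.75, in the same direction as the main fit. Between the irradiated groups Selp, at -0.15 in the main fit, was 0.06 with library totals and 0.36 with the replicate block. It was -1.42 without the 2 libraries, in the same direction as the main fit, and -1.42 to 1.26 with 1 left out. Cd34 was 0.26 with library totals, 0.07 without the 2 libraries, 0.2 without the 3 and -0.16 to 0.09 with 1 left out. For the change in effect Selp was -0.04 with library totals, -0.33 with endothelial scaling, -0.98 in limma-voom, -1.13 without the 2 libraries and -1.19 to 1.49 with 1 left out. Vcam1 was 0.03 with the replicate block, 0.2 without the 2 libraries, 0.83 without the 3 and -0.63 to 0.29 with 1 left out, and Cd34 went from -0.02 to 0.38. Averaged over both times, Cdh5, at -0.09 in the main fit, was 0.09 with library totals and up to 0.08 with 1 left out. Without Control_1d replicate 1 and Control_6w replicate 1 it was -0.24, in the same direction as the main fit. Esam was 0.13 with library totals, 0.01 with endothelial scaling, 0.03 in limma-voom and up to 0.07 with 1 left out.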

Other observations

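Other vessel and tissue genes were counted beside the members at 6 weeks, with edgeR's quasi-likelihood test. Of 6 arterial genes, 0 were called and 1 was lower at an unadjusted p under 0.05, with a median log2 fold change of -0.22. Of 4 lymphatic genes 0 had such a p (median 0.464), and of 3 endocardial genes 0 (median 0.141). Pericyte genes had a median of -0.138, and 0 of 4 had an unadjusted p under 0.05. Of 4 fibroblast genes 1 was higher, with a median of 0.676, and of 4 cardiomyocyte genes 0 differed, with a median of -0.659 and all of them below 0. Among 8 leukocyte genes 0 were called, 2 were higher and 0 lower at an unadjusted p under 0.05, against 5.43% and 3.37% of all genes, and the median was 1.18 beside -0.0886. The macrophage gene Adgre1 had a log2 fold change of 1.97 (SE 0.413, adjusted p = 0.0663) and Cd68 1.2 (SE 0.409, adjusted p = 0.339), while Ptprc had -0.86 and Cd3e -3.26. Without Control_6w replicate 3, the library with the thymocyte genes, these 2 turned to 2.14 (adjusted p = 0.0684) and 2.12 (adjusted p = 0.682). Adgre1 stood at 27.2 ± 10.8 CPM in Control_6w and 131 ± 70.8 in IRR_6w (n = 4 each).

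Ackr1, a chemokine receptor of venules, was near 0 in controls, with 0 counts in 4 of 7 control libraries and at most 17. It had 11, 7 and 20 counts in IRR_1d and 73, 14, 43 and 38 in IRR_6w. Among the libraries at 0 were Control_1d replicate 1 and Control_6w replicate 1, which miss many low genes. The mean in Control_1d, 0.0896 CPM, was below the level of 3 counts in a library, so no fold is given at 1 day (edgeR adjusted p = 1). At 6 weeks the log2 fold change was 2.7 (SE 1.37, edgeR adjusted p = 0.608). Control_6w replicate 3, with 17 counts, lay above IRR_6w replicate 2.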
